A study of Sus scrofa with 9 samples.

Results

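The genes described here encode the collagen hydroxylases, the collagen chaperone and the propeptide-processing proteins: P4HA1, P4HA2, P4HA3, PLOD1, PLOD2, PLOD3, SERPINH1, PCOLCE, BMP1 and ADAMTS2. They were chosen by symbol from the gene count table of porcine aortic valvular interstitial cells (PVICs), where all 10 were found among 19535 gene rows, and 9 of the 10 had enough counts to be among the 13661 genes tested. The choice was made with earlier results of these data known. PVICs are the fibroblast-like cells of the valve leaflet, here from wild-type pigs aged 4 to 5 months. Control cells were kept in Dulbecco's modified Eagle's medium (DMEM) for 3 days. OIM cells received for 3 days an osteogenic induced medium with ascorbic acid at 50 µg/mL, insulin at 1e-07 mol/L and sodium dihydrogen phosphate at 2 mmol/L, which the study used to induce calcium deposition. bFGF cells received the same OIM with 50 ng/mL basic fibroblast growth factor (bFGF) for 3 days, so that ascorbic acid was an added agent in the OIM and bFGF groups. The cells of all groups were grown with fetal bovine serum and had been passaged before use, and the number of animals behind them is not given in the sources used here. Each group has 3 libraries. The labels do not say that these came from separate cultures or animals, so the p-values measure the spread between these libraries, which may be technical.

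Fibrillar collagens are made as procollagen chains in the endoplasmic reticulum (ER). Prolyl 4-hydroxylases, whose catalytic subunits are P4HA1, P4HA2 and P4HA3, modify proline residues so that the triple helix is stable at body temperature, and the PLOD enzymes hydroxylate lysine residues that later carry sugars and cross-links. These enzymes need oxygen, iron, 2-oxoglutarate and ascorbate. SERPINH1 (HSP47) is a chaperone that binds the folded triple helix, ADAMTS2 cuts off the amino-terminal propeptide, BMP1 cuts off the carboxy-terminal one, and PCOLCE enhances the cut made by BMP1. In the valve, collagen carries most of the tensile load of the leaflet.

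The libraries held 57075793 to 64723837 gene counts in control, 57682710 to 67371523 in OIM and 46773376 to 48270827 in bFGF. Values below are CPM, the count of a gene relative to the total of its library, scaled by the trimmed mean of M-values (TMM), and a gene was called when its adjusted p was at most 0.05 and its absolute log2 fold change at least 0.5. With library totals in place of TMM, the median log2 fold change of all genes moved up by 0.22 in both comparisons with bFGF, so that changes here are relative to the median gene. OIM replicate 2 stood apart from its group: over genes, the mean chi-square of its counts against OIM replicates 1 and 3 was 19.1 and 19.2, beside 5.88 between those 2 and 4.68 to 11.7 within the other groups. Without it the 9 tested genes had the same numbers of calls as reported below in each comparison, and their log2 fold changes moved by at most 0.04. The marker check matched the labelled cell type: the summed level of 10 valvular interstitial or fibroblast markers was 63200 to 68400 CPM in control, 60100 to 63300 CPM in OIM and 37500 to 37900 CPM in bFGF (3 of 10 called higher and 4 lower in bFGF against OIM; 3 and 3 with library totals), and the 8 endothelial markers summed to at most 38.0 CPM in any library. COL1A1, COL1A2 and COL3A1 made up most of that interstitial sum and were called lower, as was DCN, whereas VIM (5690 to 9010 CPM), POSTN (600 to 1640 CPM) and S100A4 (65.7 to 116 CPM) were called higher. Leukocyte markers (8 listed) and cardiomyocyte markers (5 of 6 listed were in the table) were low as well, with CD3E, TNNT2 and NPPA at 0.

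The question of the OIM and control comparison was what the calcifying medium changed in these genes, and the question of the bFGF and OIM comparison was what bFGF changed on top of that medium. In bFGF against OIM, 6 of the 9 tested genes fell and 1 rose, where 18.4% of all genes tested were called lower, 17.7% higher and 36.2% in either direction. In bFGF against control, 7 of 9 fell and 1 rose, where 20.0% of all genes tested were called lower, 18.9% higher and 39.0% in either direction. For OIM against control, 0 of 9 were called by edgeR, where 2.35% of all genes were (1.49% higher and 0.864% lower). The median log2 fold change of the 9 genes was -0.93 in bFGF against OIM and -1.07 in bFGF against control, beside medians of -0.003 and -0.016 over all genes tested. The comparisons share libraries, each group entering a pair of them, so that their values are not independent of each other. In these bulk libraries, fewer cells of a type and less RNA per cell cannot be told apart. Marker sums moved with the bFGF group: 5 proliferation markers summed to 285 to 293 CPM in control, 300 to 411 CPM in OIM and 1160 to 1200 CPM in bFGF, with 5 of 5 called higher in bFGF against OIM, and 6 markers of activated interstitial or smooth muscle cells summed to 9790 to 10300, 10100 to 13300 and 1620 to 1800 CPM, with 6 of 6 called lower (5 with library totals). The endothelial markers, with 6 of 8 called higher, summed to 20.0 to 23.9, 19.6 to 23.2 and 35.1 to 38.0 CPM. The leukocyte markers, with 2 of 5 tested called lower (1 with library totals), summed to 14.6 to 17.7, 15.4 to 16.6 and 8.73 to 9.47 CPM. The cardiomyocyte markers, with 1 called higher and 1 lower, summed to 7.52 to 9.04, 10.7 to 13.7 and 6.38 to 8.33 CPM. The part of these marker changes in the results below was not tested.

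**Figure D1:**
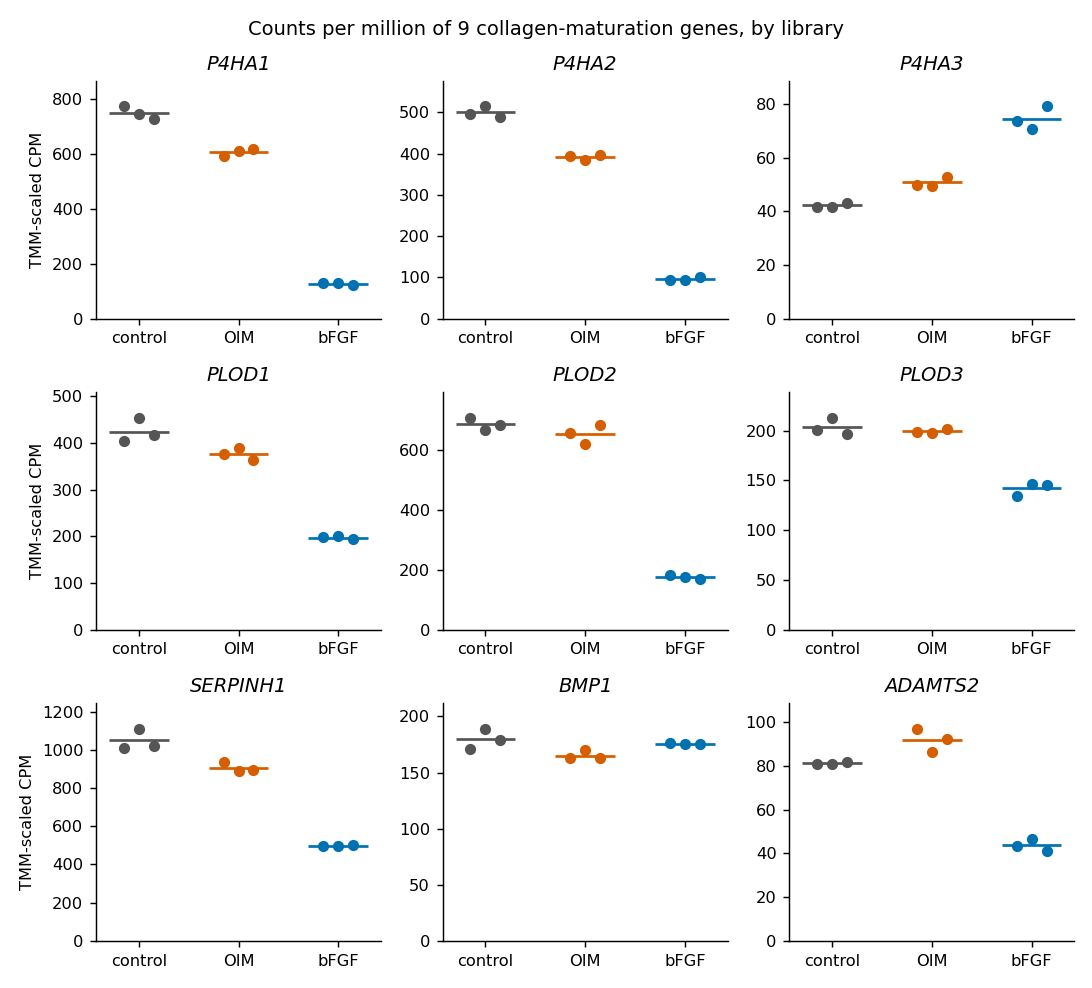
TMM-scaled CPM of the 9 genes with counts in each of the 9 libraries (points) with the mean of each group (line), each axis starting at 0. P4HA1, P4HA2 and PLOD2 were lowest in all 3 bFGF libraries, P4HA3 was highest there, and the BMP1 libraries lay between 163 and 189 CPM in all groups.

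The promoters of P4HA1, P4HA2 and PLOD2 are shown because these genes had the 3 largest falls of the 9 tested genes with bFGF and are known targets of hypoxia-inducible factors. Each window runs 5′ to 3′ from 250 bases before to 50 bases after the annotated start and was taken from RefSeq on Sscrofa11.1. Capitals mark ACGTG or GCGTG on either strand, the core letters of a hypoxia response element, so that a match on the opposite strand reads CACGT or CACGC. P4HA1 lies on chr14:75919072-75919371 (minus strand), P4HA2 on chr2:134595395-134595694 (minus strand) and PLOD2 on chr13:86513118-86513417 (minus strand).
P4HA1: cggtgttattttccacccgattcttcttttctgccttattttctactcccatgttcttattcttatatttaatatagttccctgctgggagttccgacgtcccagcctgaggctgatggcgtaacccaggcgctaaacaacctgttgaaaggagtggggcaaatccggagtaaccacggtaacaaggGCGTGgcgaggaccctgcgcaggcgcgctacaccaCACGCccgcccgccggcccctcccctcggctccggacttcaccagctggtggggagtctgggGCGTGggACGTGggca
P4HA2: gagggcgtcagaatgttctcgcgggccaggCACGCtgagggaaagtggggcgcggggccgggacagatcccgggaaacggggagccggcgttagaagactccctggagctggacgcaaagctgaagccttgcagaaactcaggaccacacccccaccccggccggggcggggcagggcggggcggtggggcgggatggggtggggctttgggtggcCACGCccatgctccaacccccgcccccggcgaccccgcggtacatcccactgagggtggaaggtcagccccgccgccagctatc
PLOD2: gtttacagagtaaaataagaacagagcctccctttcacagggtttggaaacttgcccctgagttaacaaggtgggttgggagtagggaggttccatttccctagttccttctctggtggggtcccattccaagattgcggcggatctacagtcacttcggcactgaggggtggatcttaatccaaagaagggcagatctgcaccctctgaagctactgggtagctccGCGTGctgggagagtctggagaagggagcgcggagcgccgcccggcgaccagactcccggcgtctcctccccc
The P4HA1 window held 4 matches, at -63, -28, 34 and 41 from the start, the P4HA2 window held 2, and the PLOD2 window held 1. These letters are common: 9682 of 19525 windows of protein-coding genes (49.6%) held at least 1 match and 24.0% held 2 or more. Of the other 7 genes, PLOD3 held 4 matches and PCOLCE 1, and the windows of P4HA3, PLOD1, SERPINH1, BMP1 and ADAMTS2 held 0. A match describes letters in the window and not a bound site.

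P4HA1, the catalytic subunit with the highest level per kilobase of the 3 in every group, spans 75827207 to 75919121 on chromosome 14 of Sscrofa11.1. Its level was 771, 744 and 725 CPM in the control libraries, 590, 608 and 615 CPM in the OIM libraries and 130, 129 and 123 CPM in the bFGF libraries. No libraries of any 2 groups overlapped, and the order was control, then OIM, then bFGF. P4HA1 fell 4.75-fold in bFGF against OIM (log2 fold change -2.25 ± 0.0376 SE, n = 3 against 3, adjusted p = 8.48e-20, quasi-likelihood F-test of edgeR, adjusted by Benjamini and Hochberg over all genes tested) and 5.86-fold in bFGF against control. The OIM level was 1.23-fold lower than in control, with a log2 fold change of -0.30 ± 0.0355 (SE; edgeR adjusted p = 6.19e-06), which is inside the fold limit.

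P4HA2, the subunit of the second prolyl 4-hydroxylase isoenzyme, followed the same order (chromosome 2, 134502210 to 134595444). The control libraries had 497, 514 and 488 CPM, the OIM libraries 393, 384 and 396 CPM, and the bFGF libraries 93.8, 93.3 and 100 CPM. The 3 groups were again separate. P4HA2 fell 4.09-fold in bFGF against OIM (log2 fold change -2.03 ± 0.0382 SE, edgeR adjusted p = 4.02e-19), and its log2 fold change was -2.38 in bFGF against control and -0.35 in OIM against control (edgeR adjusted p = 1.25e-06, inside the fold limit). P4HA2 and P4HA1 had the largest differences of the 9 genes between OIM and control.

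P4HA3, the subunit with the lowest level of the 3, went the other way (chromosome 9, 8627365 to 8681804). It had 41.6, 41.6 and 43.3 CPM in control, 50.0, 49.5 and 52.9 CPM in OIM and 73.6, 70.6 and 79.1 CPM in bFGF. Every bFGF library was above every OIM library, and every OIM library was above every control library. P4HA3 rose 1.47-fold in bFGF against OIM (log2 fold change 0.55 ± 0.0503 SE, edgeR adjusted p = 6.25e-09) and 1.77-fold in bFGF against control (log2 fold change 0.82). It was the 1 gene of the 9 called higher, past the fold limit, in these comparisons, also with library totals. Its log2 fold change in OIM against control was 0.27 (edgeR adjusted p = 0.00117), inside the fold limit.

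Per kilobase of annotated exon, which allows genes to be compared, the summed level of the 3 P4HA subunits was 349 ± 8.27 in control, 283 ± 4.63 in OIM and 74.1 ± 0.539 CPM per kilobase in bFGF (SD, n = 3). P4HA1 held 70.8% ± 0.697 of that sum in control, 70.7% ± 0.543 in OIM and 57.0% ± 1.92 in bFGF. The share of P4HA2 was 26.9% ± 0.66, 26.0% ± 0.511 and 24.3% ± 0.933 in the same order. The share of P4HA3 was 2.17, 2.21 and 2.37% in the control libraries, 3.33, 3.25 and 3.42% in the OIM libraries and 18.4, 17.9 and 19.8% in the bFGF libraries, which did not overlap. Each of these 3 shares was separate between bFGF and OIM, with an exact two-sided permutation p of 0.1, the smallest that 3 against 3 libraries allow (adjusted p = 0.129 over 18 share comparisons, exact permutation test).

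P4HB, the subunit that the collagen prolyl 4-hydroxylases share and that is also protein disulfide isomerase, was also lowest in bFGF. It had 1280, 1400 and 1280 CPM in control, 1190, 1190 and 1150 CPM in OIM and 892, 887 and 917 CPM in bFGF. Its log2 fold change in bFGF against OIM was -0.39 ± 0.0364 (SE; edgeR adjusted p = 8.95e-09), inside the fold limit, and it fell by 0.56 on the log2 scale in bFGF against control (-0.33, not called, with library totals). Relative to the summed P4HA level per kilobase, P4HB stood at 158% ± 8.11 in control, 173% ± 5.82 in OIM and 506% ± 8.29 in bFGF (SD, n = 3).

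**Figure D2:**
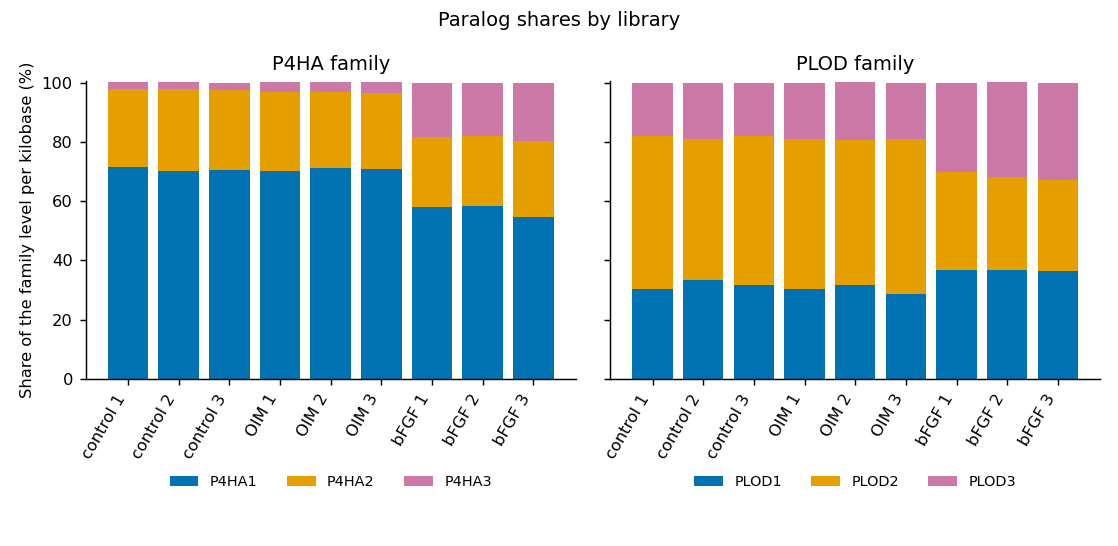
Share of each paralog in the summed CPM per kilobase of its family, in percent, in each of the 9 libraries (stacked bars). The P4HA3 share was 17.9 to 19.8% in bFGF and at most 3.42% elsewhere, and the PLOD2 share was 30.8 to 33.1% in bFGF and at least 47.5% elsewhere.

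Of the 3 lysyl hydroxylases, PLOD2, which hydroxylates the telopeptide lysines that direct cross-linking in fibrotic tissue, fell most (chromosome 13, 86402673 to 86513167). PLOD2 had 709, 668 and 684 CPM in control, 656, 622 and 686 CPM in OIM and 184, 178 and 170 CPM in bFGF. The control and OIM libraries overlapped, and all bFGF libraries were below both. PLOD2 fell 3.7-fold in bFGF against OIM (log2 fold change -1.89 ± 0.0422 SE, edgeR adjusted p = 3.53e-18), whereas its log2 fold change in OIM against control was -0.07 (95% interval -0.15 to 0.01, edgeR adjusted p = 0.3).

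PLOD1, the enzyme of helical lysines (chromosome 6, 71987938 to 72019712), had 403, 454 and 417 CPM in control, 377, 390 and 363 CPM in OIM and 198, 201 and 194 CPM in bFGF. All OIM libraries were below the control libraries and all bFGF libraries below those. PLOD1 fell 1.91-fold in bFGF against OIM (log2 fold change -0.93 ± 0.0428 SE, edgeR adjusted p = 1.56e-13). The log2 fold change in OIM against control was -0.17 (edgeR adjusted p = 0.0086, and 0.0532 without control replicate 2), inside the fold limit.

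PLOD3, a lysyl hydroxylase that also transfers sugars to hydroxylysine, had the smallest log2 fold changes of the 3 with bFGF (chromosome 3, 8911787 to 8919525). Its libraries had 201, 213 and 197 CPM in control, 199, 198 and 202 CPM in OIM and 134, 146 and 145 CPM in bFGF. The bFGF libraries were below all others, and the other 2 groups overlapped. Its log2 fold change in bFGF against OIM was -0.49 ± 0.0411 (SE; edgeR adjusted p = 1.75e-09), just inside the fold limit, -0.27 with library totals, and -0.51, past the limit, without bFGF replicate 2 or without bFGF replicate 3. In bFGF against control PLOD3 fell by 0.52 on the log2 scale, but its log2 fold change was -0.30 with library totals, -0.49 without control replicate 2 and -0.48 without bFGF replicate 1, and it was not called in these 3 fits. Of the exon bases of PLOD3, 19.1% lie under exons of ZNHIT1 on the opposite strand, whose level was 28.1 ± 0.979 CPM in control, 26.5 ± 2.19 in OIM and 21.6 ± 0.233 in bFGF, and without knowledge of strand in the counting the reads of the 2 genes cannot be told apart there.

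The summed PLOD level was 325 ± 5.04 CPM per kilobase in control, 305 ± 4.76 in OIM and 132 ± 2.07 in bFGF (SD, n = 3). PLOD2 held 49.8% ± 2.02 of this sum in control, 50.6% ± 1.68 in OIM and 31.7% ± 1.24 in bFGF. PLOD3 held 18.4% ± 0.468, 19.2% ± 0.145 and 31.7% ± 1.43, and PLOD1 31.9% ± 1.6, 30.2% ± 1.57 and 36.6% ± 0.209. With bFGF the 3 lysyl hydroxylases were thus at similar levels per kilobase, at 48.2 ± 0.917 for PLOD1, 41.7 ± 1.72 for PLOD2 and 41.6 ± 1.96 for PLOD3, of which the last 2 did not differ beyond their spread. The bFGF and OIM shares were separate for each PLOD gene (exact permutation p = 0.1, the smallest possible, adjusted p = 0.129).

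SERPINH1, the ER chaperone of the triple helix, had the highest level per kilobase of the 9 tested genes in every group (chromosome 9, 9782939 to 9794485). A stretch of its promoter is shown because it holds a heat shock element, in capitals: the letters TTC, GAA and TTC, or GAA, TTC and GAA, each separated by 2 bases of any kind, which covers both strands. The stretch lies on chr9:9782905-9782988 (plus strand) of Sscrofa11.1, from RefSeq.
SERPINH1: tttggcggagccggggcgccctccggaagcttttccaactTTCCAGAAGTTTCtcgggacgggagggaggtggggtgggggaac
The element starts 6 bases after the annotated start. Of the 10 windows only that of SERPINH1 held it, as did 74 of all 19525 windows (0.379%). The SERPINH1 libraries had 1010, 1110 and 1020 CPM in control, 936, 889 and 894 CPM in OIM and 497, 496 and 503 CPM in bFGF. The 3 groups did not overlap. SERPINH1 fell 1.82-fold in bFGF against OIM (log2 fold change -0.86 ± 0.038 SE, edgeR adjusted p = 8.17e-14) and 2.1-fold in bFGF against control. Between OIM and control its log2 fold change was -0.21 (edgeR adjusted p = 0.000818), inside the fold limit.

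The propeptide proteinases did not move together. ADAMTS2, the amino-terminal propeptidase (chromosome 2, 79182901 to 79406879), had 81.0, 80.8 and 81.5 CPM in control, 96.9, 86.5 and 92.4 CPM in OIM and 43.4, 46.4 and 41.0 CPM in bFGF. OIM was the highest group and bFGF the lowest, without overlap. ADAMTS2 fell 2.11-fold in bFGF against OIM (log2 fold change -1.08 ± 0.0511 SE, edgeR adjusted p = 2.62e-13). Its log2 fold change in OIM against control was 0.18 (edgeR adjusted p = 0.018), inside the fold limit, and the adjusted p was up to 0.108 when single libraries were left out.

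BMP1, the carboxy-terminal procollagen proteinase (chromosome 14, 6443773 to 6489066), had 171, 189 and 179 CPM in control, 163, 170 and 163 CPM in OIM and 176, 175 and 175 CPM in bFGF. The bFGF libraries lay within the range of the control libraries and above the OIM libraries. Its log2 fold change was 0.09 in bFGF against OIM (95% interval 0.01 to 0.16, edgeR adjusted p = 0.0628) and -0.04 in bFGF against control (95% interval -0.11 to 0.04, edgeR adjusted p = 0.43). The first value, inside the fold limit throughout, passed the adjusted p in 4 of 16 alternatives: 0.31 with library totals (edgeR adjusted p = 1e-06), 0.13 without OIM replicate 2 (0.00775), and 0.08 without control replicate 2 (0.0381) or with only these 2 groups (0.0454). The second turned its sign with library totals (0.19, edgeR adjusted p = 0.000303) and without control replicate 2 (0.002). Its log2 fold change in OIM against control was -0.12 (edgeR adjusted p = 0.0471, but 0.0618 to 0.192 in 10 of 16 alternatives, library totals and single libraries left out among them).

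PCOLCE, the enhancer of BMP1, had 0 counts in all 9 libraries and was not tested. A count of 0 allows up to 3 counts in a library, or 0.0445 to 0.0641 CPM, but this limits only reads assigned to PCOLCE. The gene lies on chromosome 3 from 8523455 to 8528749, and 1682 of its 1688 exon bases (99.6%) also belong to exons of FBXO24 on the same strand, so that reads there cannot be told apart by position. FBXO24 had 7 to 30 counts in each library. Of 46 protein-coding genes with at least 99% of their exon bases in another gene on the same strand, 37 (80.4%) were at 0 in every library, beside 2909 of 18835 (15.4%) of the genes with under 1%. For that reason no expression level is given for PCOLCE. PCOLCE2, its paralog, had 84.4 ± 1.34 CPM in control, 70.0 ± 0.505 in OIM and 87.9 ± 2.45 in bFGF (SD, n = 3), and its difference between bFGF and OIM was 0.33 on the log2 scale (edgeR adjusted p = 4.07e-07), inside the fold limit, and 0.55, past it, with library totals.

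**Figure D3:**
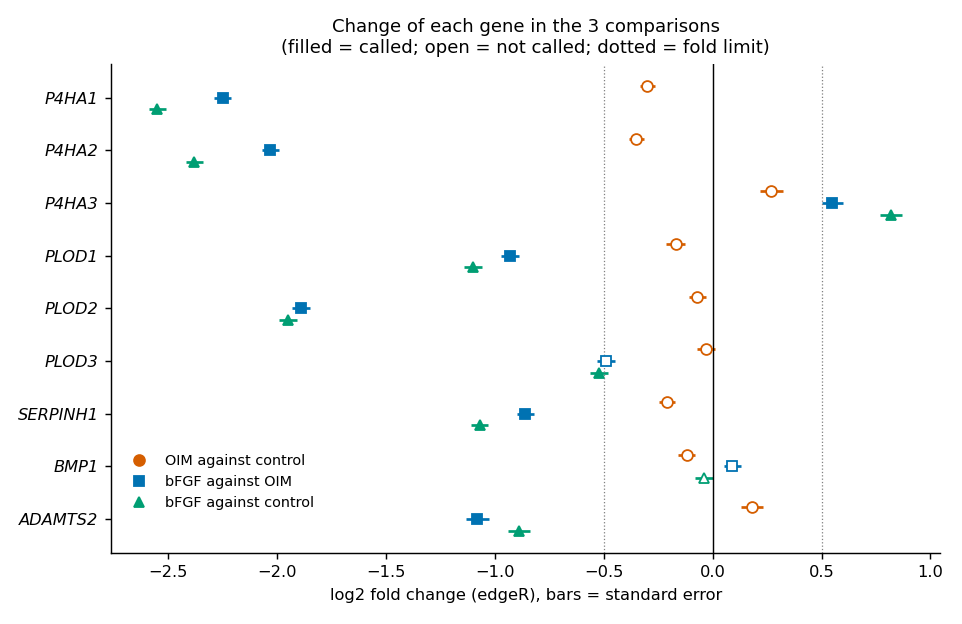
Log2 fold change of each tested gene in OIM against control (circles), bFGF against OIM (squares) and bFGF against control (triangles), with bars for the standard error and dotted lines at the fold limit. All circles lie inside the limit, between -0.35 and 0.27, while P4HA1, P4HA2 and PLOD2 lie between -2.55 and -1.89 in both comparisons with bFGF.

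Between OIM and control all 9 genes lay inside the fold limit. By adjusted p alone, 2 genes were higher (P4HA3 and ADAMTS2) and 5 lower (P4HA1, P4HA2, PLOD1, SERPINH1 and BMP1), where 13.6% of all genes passed (7.69% higher and 5.87% lower), and DESeq2 and the unadjusted p gave the same counts. With the fold limit, both tools called 0. The libraries of OIM and control did not overlap for the same 2 and 5 genes, as for 28.7% of all genes tested (14.5% higher and 14.2% lower). In bFGF against OIM, the libraries did not overlap for all 9 tested genes (2 higher and 7 lower), as for 72.1% of all genes (36.3% and 35.8%), and in bFGF against control for 8 of 9 (1 higher and 7 lower), as for 73.7% (36.4% and 37.3%). Separate libraries were thus common among all genes in the comparisons with bFGF.

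Per kilobase, the order of the levels in control and OIM was SERPINH1, P4HA1, PLOD2, PLOD1, P4HA2, PLOD3, BMP1, ADAMTS2 and P4HA3. With the longest annotated transcript as length, P4HA2 came before PLOD1 (127 against 104 CPM per kilobase in control and 99.4 against 91.9 in OIM). In control the levels ran from 483 ± 26.0 CPM per kilobase for SERPINH1 through 247 ± 7.53 for P4HA1 to 7.85 ± 0.186 for P4HA3, and each neighbouring pair differed by more than the spread of its libraries. In bFGF SERPINH1 was still first at 230 ± 1.71, and 5 genes followed within a narrow range, with PLOD1 at 48.2 ± 0.917, BMP1 at 47.1 ± 0.129, P4HA1 at 42.2 ± 1.36, PLOD2 at 41.7 ± 1.72 and PLOD3 at 41.6 ± 1.96. The last 3 of these did not differ beyond their spread. P4HA2 was at 18.0 ± 0.719, P4HA3 at 13.9 ± 0.803 and ADAMTS2, now last, at 6.23 ± 0.387. P4HA1 was thus second in control and OIM and in bFGF among 3 genes that could not be ranked (in the fifth place with the longest transcript, at 43.2 against 44.0 for PLOD2), and BMP1 went from the seventh to the third with a level close to that in control.

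The substrates of these enzymes, the fibrillar procollagen chains, were also lower with bFGF: 7 of 10 tested chains fell and 0 rose in bFGF against OIM, with a median log2 fold change of -1.0 (6 with library totals, where COL3A1 was not called). In the same comparison 18.4% of all genes tested were called lower and 17.7% higher. COL1A1, the main chain of type I collagen, had 27000 ± 1840 CPM in control, 25000 ± 1120 in OIM and 9880 ± 222 in bFGF. Relative to COL1A1 per kilobase, the summed P4HA level was 7.97% ± 0.61 in control, 6.96% ± 0.367 in OIM and 4.6% ± 0.135 in bFGF. The summed PLOD level was 7.41% ± 0.423, 7.47% ± 0.282 and 8.17% ± 0.0808 of COL1A1, and SERPINH1 was 11.0% ± 0.253, 10.3% ± 0.252 and 14.3% ± 0.378. Relative to the sum of COL1A1, COL1A2, COL3A1, COL5A1 and COL5A2, P4HA was again lowest in bFGF, at 3.01% ± 0.148, 2.54% ± 0.108 and 1.39% ± 0.0213. With this wider denominator PLOD was 2.8% ± 0.0836, 2.73% ± 0.0745 and 2.46% ± 0.0172, below OIM in bFGF where it had been above OIM relative to COL1A1 alone, and SERPINH1 was 4.15% ± 0.0598, 3.75% ± 0.0952 and 4.31% ± 0.065. Of the chains, COL11A1 fell 8.77-fold in bFGF against OIM (804 ± 110 to 91.7 ± 7.0 CPM) and COL5A3 5.74-fold (19.0 ± 3.44 to 3.3 ± 0.402 CPM). COL1A1, COL1A2 and COL3A1 are also in the interstitial cell marker list.

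Among all genes tested, 17.7% were called higher and 18.4% lower in bFGF against OIM. Of 14 partners of the hydroxylases and other collagen-modifying enzymes, 2 rose and 5 fell in bFGF against OIM (median -0.39 on the log2 scale). With library totals in place of TMM this list had 3 rises and 0 falls (median -0.17): P3H1, P3H2, P3H3, TXNDC5 and CREB3L1 were no longer called, at log2 fold changes of -0.49 to -0.32, and COLGALT1 was called at 0.55. COLGALT2, which adds galactose to hydroxylysine, rose 1.92-fold from 1.55 ± 0.44 to 2.99 ± 0.141 CPM, and TMEM38B, an ER cation channel, rose 1.72-fold from 3.72 ± 0.57 to 6.4 ± 0.688 CPM. P3H2, a prolyl 3-hydroxylase, fell by 0.71 and CREB3L1, a transcription factor of the ER stress response in collagen-secreting cells, by 0.65 on the log2 scale. Of 10 genes of collagen export from the ER, 4 fell and 0 rose, with a median of -0.35. With library totals the median was -0.13 and 1 fell (SEC24D), since MIA3, SEC23A and SAR1A were at -0.45, -0.39 and -0.37. SEC24D, a subunit of the COPII coat of vesicles, fell by 0.89, and MIA3 (TANGO1), which loads procollagen into them, by 0.68.

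Calls in bFGF against OIM covered 17.7% of all genes tested as higher and 18.4% as lower. Of 7 tested other propeptide proteinases and enhancers, 4 rose and 1 fell in bFGF against OIM, with a median log2 fold change of 0.73 (5 rose with library totals, PCOLCE2 added). TLL1, a proteinase of the BMP1 family, rose 3.37-fold from 8.26 ± 1.23 to 27.9 ± 4.02 CPM (log2 fold change 1.75 ± 0.113 SE, edgeR adjusted p = 3.26e-11). TLL2, of the same family, rose 1.87-fold from 1.25 ± 0.374 to 2.35 ± 0.562 CPM, a call lost without bFGF replicate 2 (log2 fold change 0.69, edgeR adjusted p = 0.069). SFRP2, a secreted protein that also binds BMP1, fell 11.4-fold from 398 ± 57.6 to 35.0 ± 1.03 CPM (log2 fold change -3.51 ± 0.0766 SE, edgeR adjusted p = 2.61e-18). The 5 lysyl oxidases, which act on lysines and hydroxylysines after secretion, had 1 rise and 3 falls, with a median of -1.3. LOXL2 fell 3.98-fold from 1600 ± 27.8 to 401 ± 4.25 CPM, LOXL4 fell 2.47-fold from 148 ± 9.42 to 59.9 ± 4.33 CPM, and LOXL1 rose 1.53-fold from 88.4 ± 3.54 to 136 ± 9.41 CPM.

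**Figure D4:**
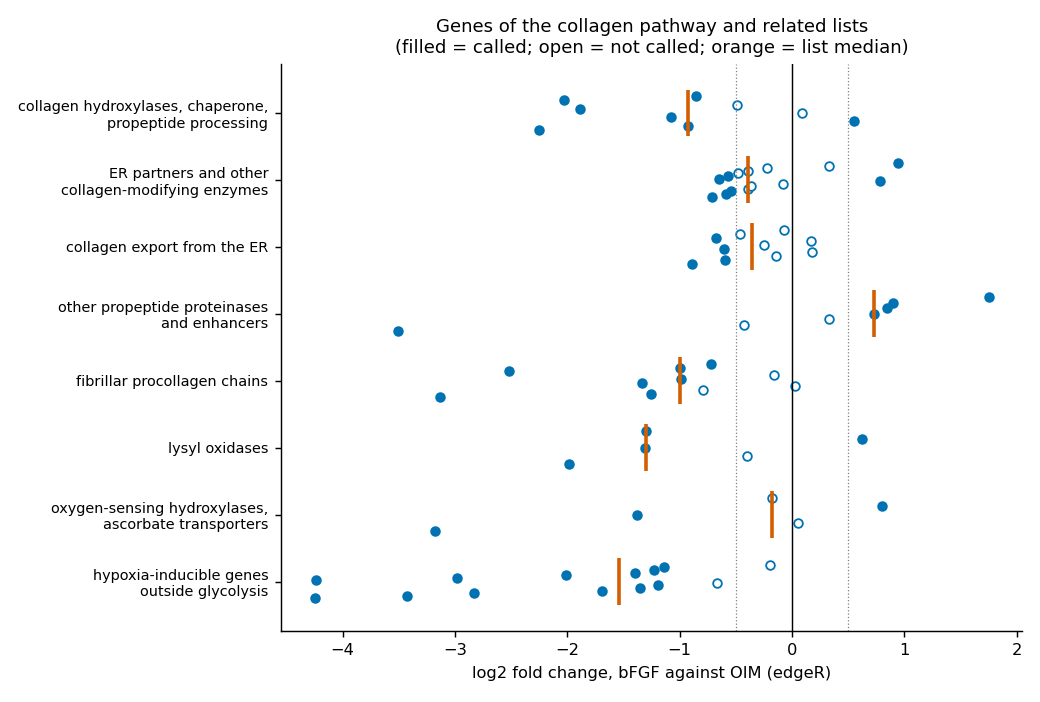
Change on the log2 scale between bFGF and OIM for every tested gene of the 10 genes and of the other lists (points, filled when called), with the median of each list as an orange line and the fold limit dotted. The medians run from -1.54 for the hypoxia-inducible genes to 0.73 for the other propeptide proteinases and enhancers.

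The prolyl 4-hydroxylases share their cofactors with the hydroxylases that sense oxygen. Of 5 tested oxygen-sensing hydroxylases and ascorbate transporters, 1 rose and 2 fell in bFGF against OIM, with a median log2 fold change of -0.18 (0.04 with library totals). Beside this list, 17.7% of all genes tested were called higher and 18.4% lower. EGLN3 and EGLN1, which hydroxylate hypoxia-inducible factor, fell 9.09-fold (58.6 ± 1.33 to 6.44 ± 0.196 CPM) and 2.6-fold (92.8 ± 2.07 to 35.7 ± 1.69 CPM). SLC23A2, the ascorbate transporter, rose 1.74-fold from 155 ± 3.79 to 269 ± 3.79 CPM. Of 14 hypoxia-inducible genes outside glycolysis, 12 fell and 0 rose, with a median of -1.54. The largest falls were those of ANKRD37, 19.0-fold from 7.01 ± 0.405 to 0.367 ± 0.152 CPM, and NDUFA4L2, 18.9-fold from 16.8 ± 2.81 to 0.886 ± 0.253 CPM. P4HA1, P4HA2 and PLOD2 are themselves known hypoxia-inducible genes and were kept out of this list.

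In OIM against control, 5 of the 65 tested genes of these lists were called, all lower (7.69%, beside 0.864% of all genes tested). The lists were chosen with earlier results of these data known, so these shares are given as values and were not tested. COLGALT2 fell by 0.79 (log2), a call lost without control replicate 1 (edgeR adjusted p = 0.0511) or OIM replicate 1 (edgeR adjusted p = 0.0679). LOXL2 fell by 0.70 and EGLN3, of the oxygen-sensing hydroxylases, by 0.75. Of the 14 hypoxia-inducible genes, CA12 fell by 0.80 and NDUFA4L2 by 1.13, so that 2 of 14 were called lower, and 9 of 14 were lower by adjusted p alone, as were 5.87% of all genes. These counts of the hypoxia-inducible list were the same without OIM replicate 2. No listed gene was called higher by edgeR or DESeq2 with the adjusted p and the fold limit, and 1 of the 46 tested collagen folding, secretion and processing genes was with the unadjusted p in both. Without OIM replicate 2, ADAMTS14, an amino-terminal propeptidase, was called higher in OIM against control (log2 fold change 0.5, edgeR adjusted p = 0.0194).

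The genes with patterns most like those of P4HA1 and P4HA2, which had the widest ranges of group means, were found by Pearson correlation of log2 CPM over the 9 libraries. For P4HA1 these were AK4, an adenylate kinase of mitochondria (r = 0.9995), PTGFR, the prostaglandin F receptor (r = 0.9993), and TMEM255A (r = 0.9993). For P4HA2 they were CEBPD, a transcription factor (r = 0.9993), PGK1, a glycolytic kinase (r = 0.9993), and DEF8 (r = 0.9991). AK4 went from 229 CPM in control and 203 CPM in OIM to 68.2 CPM in bFGF, and PGK1 from 701 and 610 to 241 CPM. The 9 libraries are 3 groups of 3 and not 9 conditions, and such values were common: 1998 of 13386 genes reached r of at least 0.95 with P4HA1 and 1942 with P4HA2.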

How the data were processed

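RNA of PVICs was sequenced in 9 libraries (3 control, 3 OIM, 3 bFGF). The labels name a stranded total RNA kit with ribosomal depletion, and the submitters' processing notes name Trimmomatic, HISAT2, StringTie and Sscrofa11.1, whereas the paper's methods name poly-A selection, Cutadapt, STAR and susScr11 and a shorter treatment before extraction. The counting program and its use of strand are not given in the sources used here. The authors deposited counts that were not normalized in 1 table: whole-number counts for 19535 gene rows and 6179 circRNAs, and estimated counts (expected counts, not all whole) for 9888 non-coding transcripts, which were not used here. The gene values used are whole numbers. Its 19 columns with no name or value were not used, and 2 rows with a repeated symbol were left out.

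Genes were kept by filterByExpr, scaled by TMM and tested in 1 quasi-likelihood model of 3 groups with 6 residual degrees of freedom (edgeR 4.0.16, limma 3.58.1, R 4.3.3), with Benjamini-Hochberg adjustment over 13661 genes. Standard errors are the log2 fold change divided by the square root of F, and intervals are 1.96 standard errors either side. The adjusted p and fold limits follow the paper's methods, which used DESeq2, here an alternative (DESeq2 1.42.0). On simulated counts for bFGF against OIM, the step on 13661 genes called 81 of 100 genes changed by 1 on the log2 scale, 97 of 100 changed by 2, and 4 of 13461 unchanged. Simulated rises and falls were equal in number and most genes were unchanged, whereas 36.2% of genes were called in the data. These rates therefore need not hold for the data. Levels per kilobase used the union of annotated exons. Shares were compared with an exact permutation test (SciPy 1.17.1). With a common biological coefficient of variation of 0.0602, replicate spread outweighs counting error for all but low genes. Limits from a count of 0 cover counting error only. The 10 genes and all lists were chosen with earlier results of these data known, so they are described by counts and medians with no list test. All 10 genes are named, with P4HB and, from each further list, up to 2 called genes in each direction with the largest fold change in bFGF against OIM. Genes outside that rule (such as PCOLCE2, ADAMTS14, COL1A1 and the other chains of its denominators, COLGALT1 and the genes named for lost calls, CA12, single marker genes, ZNHIT1 and FBXO24) were named after their values were seen. Alternatives were DESeq2, median-of-ratios size factors, library totals, other filters, fits on 2 groups, a replicate block, other fold limits, other gene lengths and leaving out each library.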

Additional observations from a re-analysis of the deposited data

How the results depend on the processing

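Over the 9 tested genes and 16 alternatives, the log2 fold changes kept their direction and their call in 143 of 144 refits for OIM against control, 142 for bFGF against OIM and 139 for bFGF against control. The adjusted p alone crossed 0.05 in 15, 4 and 1 of these refits: for BMP1 in 10, for ADAMTS2 in 4 and for PLOD1 in 1 in OIM against control, and otherwise for BMP1. PLOD3 in OIM against control ranged from -0.052 to 0.004 and BMP1 in bFGF against control from -0.07 to 0.002 with single libraries left out, turning without control replicate 2 in both, and BMP1 turned to 0.19 with library totals; the cause was not tested. With no fold limit, 2 of the 10 genes were higher and 5 lower in OIM against control, and with a limit of 1 P4HA3 was lost, leaving 0 higher in both comparisons with bFGF, 4 lower in bFGF against OIM (PLOD1 and SERPINH1 lost) and 5 in bFGF against control (PLOD3 and ADAMTS2 lost). Leaving out each library gave 6 to 7 lower in both. For the 46 other collagen folding, secretion and processing genes, OIM against control gave 0 to 1 higher (ADAMTS14) and 1 to 2 lower (COLGALT2 lost) with single libraries left out, 5 and 6 with no fold limit and 0 lower with a limit of 1. For these genes bFGF against OIM gave 11 higher and 30 lower with no limit, 1 and 9 with a limit of 1 and 11 lower with library totals (20 with TMM and a limit of 0.5, 20 to 21 with single libraries left out), and bFGF against control gave 30 lower with no limit, 2 higher and 10 lower with a limit of 1 and 12 lower with library totals (22 with TMM and a limit of 0.5, 21 to 23 with single libraries left out). The oxygen-sensing list had 2 lower with no limit and 0 with a limit of 1 in OIM against control, and 0 higher with a limit of 1 in both comparisons with bFGF; the hypoxia-inducible list had 9 and 1 lower in OIM against control. With the longest transcript, the shares in control, OIM and bFGF were 64.7, 64.5 and 49.7% for P4HA1, 32.5, 31.3 and 28.0% for P4HA2, 2.81, 4.17 and 22.3% for P4HA3, and 35.7% for PLOD1 in bFGF. With no length they were 57.9, 57.8 and 42.8% for P4HA1, 38.8, 37.4 and 32.2% for P4HA2, 3.28, 4.85 and 25.0% for P4HA3, 52.2, 53.2 and 34.3% for PLOD2, 15.5, 16.2 and 27.5% for PLOD3, and 38.2% for PLOD1 in bFGF. Same-numbered libraries did not deviate together over all genes (correlations of deviations of -0.0319 to 0.0035), so no pairing by number was seen. Whether they shared a day or batch is not given in the labels. With the replicate block the calls were 0 and 0, 1 and 6, and 1 and 7 (higher and lower) in the 3 comparisons, as without it. The circRNA counts at these loci were too low for a test each.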

Other observations

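The deposited table also holds counts of back-splice reads for 6179 circular RNAs (circRNAs), and both ends of 5248 of them matched exon boundaries of the Sscrofa11.1 annotation (0 when moved by 1 base). At the loci of the 10 genes 10 circRNAs were listed, 9 of them with both ends at exon boundaries on the strand of the gene. They were 4 at PLOD2, 3 at P4HA1 and 1 each at P4HA3, PLOD3 and BMP1. Their counts are too low for a test per circRNA and are given as values. The lowest count above 0 among them was 2, and whether fewer reads were set to 0 is not known.

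The joined ends of the circRNAs with the most counts are shown for P4HA1 and PLOD2, with 20 bases on each side from Sscrofa11.1, the end of the downstream exon in lower case followed by the start of the upstream exon in capitals. They lie at chr14:75895155-75897301 for circRNA 2151, chr13:86452535-86474319 for circRNA 1666 and chr13:86452535-86459135 for circRNA 1664, all on the minus strand.
circRNA 2151 (P4HA1): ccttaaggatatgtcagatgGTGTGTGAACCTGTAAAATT
circRNA 1666 (PLOD2): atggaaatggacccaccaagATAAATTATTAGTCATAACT
circRNA 1664 (PLOD2): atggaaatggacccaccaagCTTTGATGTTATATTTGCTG
circRNA 2151 had 4, 5 and 5 counts in the control libraries and 0 in all OIM and bFGF libraries. circRNA 1666 had 6, 3 and 4 counts in control, 0, 5 and 8 in OIM and 4, 0 and 0 in bFGF. circRNA 1664 had 6, 5 and 0, 5, 3 and 0, and 0, 2 and 0 in the same order.

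Summed over the 3 libraries of a group, the circRNAs at P4HA1 had 21 counts in control, 3 in OIM and 0 in bFGF, and those at PLOD2 had 26, 24 and 6. The whole circRNA table held 27278, 26743 and 18735 counts in the same groups.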
